A study of Mus musculus with 6 samples.

Results

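The genes described here encode laminins, integrins and a small set of basement membrane proteins. They were chosen by symbol: every laminin alpha, beta and gamma chain gene, every integrin alpha and beta subunit gene, and Nid1, Nid2, Hspg2, Fras1, Frem1, Frem2 and Npnt. The deposited table holds 42 such genes among 20033, namely 11 laminin chains, 16 integrin alpha subunits, 8 integrin beta subunits and the 7 others. Poly(A) RNA was sequenced from the mesonephros, the embryonic kidney that carries the Wolffian duct, of male mice at E12.5. The knockout group is 3 embryos labelled Wnt9b-/-, a global knockout, and the control group is 3 embryos whose genotype field reads heterozygous while the design text reads Wnt9b+/+. The titles number 1 mouse per library, and the labels give neither a strain nor the deleted part of the gene. In such bulk tissue, fewer cells of a type and less RNA per cell cannot be told apart.

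A basement membrane is the thin matrix sheet beneath an epithelium. Laminins, trimers of 1 alpha, 1 beta and 1 gamma chain, polymerise on the cell surface, nidogens and perlecan link them to collagen IV, and cells hold the sheet through integrins, dimers of 1 alpha and 1 beta subunit. In mice, nephronectin (Npnt) in the basement membrane of the nephric duct and ureteric bud is bound by integrin alpha 8 beta 1 on the adjoining mesenchyme, and the Fraser complex of Fras1, Frem1 and Frem2 keeps nephronectin in place. Loss of Npnt, Itga8 or a Fraser complex gene impairs outgrowth of the ureteric bud in mice.

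Reads recovered from the TPM values (a level scaled to transcript length and library total) ran from 28687415 to 33574278 per library, as lower bounds. Wnt9b itself stood at 23.4, 19.2 and 19.0 TPM in knockouts 1 to 3, against 24.9, 26.4 and 34.0 TPM in controls 1 to 3 (log2 difference -0.44, SE 0.14; limma adjusted p = 0.266). It was lower in every knockout but not absent, and a gene-level value may still count transcripts of a partly deleted gene. None of 14 markers of duct and tubule epithelium was under 1 TPM throughout, and their summed level was 839 to 906 TPM in knockouts and 988 to 1040 TPM in controls. Of the 14, 11 had a lower mean in the knockouts and 3 a higher one, namely Cdh1, Gata3 and Ret. Calb1 and Lhx1 differed most, at -1.35 and -1.32 on the log2 scale (limma adjusted p = 0.0281 and 0.0123). The summed level of 12 gonadal somatic markers was 275, 234 and 157 TPM in knockouts 1 to 3, against 103 to 129 TPM in controls. Knockout 3 thus lay nearest to the controls for those genes. Knockout 3 and control 3 also stood apart from their groups for the genes described here, as shown at the end.

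Each of the 22 family genes that averaged at least 10 TPM had a lower mean in the knockouts, but none of the 36 tested genes passed the test over all genes. Among the tested genes Frem1, of the Fraser complex, differed most, with a mean 35.6% lower in the knockouts. The means of Npnt, Lamc1, Lama1 and Itga8 were 25.4%, 22.6%, 21.1% and 20.8% lower. The test was limma on log2(TPM + 1) with Benjamini-Hochberg adjustment over the 17577 genes that reached 1 TPM in 3 or more libraries. It called 0 of the 36 family genes, and of all genes tested it called 0.444%, with 0.313% lower and 0.131% higher. The 6 genes under that minimum were Itgae, Itgam, Itga7, Itgb6, Lamb3 and Lama3. Of these, Itgb6, an epithelial partner of alpha v, averaged 0.557 TPM in knockouts and 0.941 TPM in controls, a mean 40.8% lower at 18 to 84 reads per library, with groups that overlapped.

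At an unadjusted limma p under 0.05 there were 11 family genes, all of them lower in the knockouts, against 5.92% of all tested genes that were lower at that level. Of the 36 tested genes, 28 had a negative log2 difference, against 51.8% of all tested genes. The median log2 difference was -0.14 for the family and -0.0075 for all tested genes. At a mean level of 10 TPM or more, 22 of 22 family genes had a negative difference, against 51.2% of all genes at that level, while 6 of the 14 tested genes below it did; that level was chosen after the values were seen, and Lamc3 at 8.17 TPM lay just below it. In 6 genes, namely Frem1, Npnt, Lama1, Lamb1, Itga6 and Itgb5, every knockout library lay below every control library, a share of 16.7% where 8.49% of all tested genes did so. Itgb4 was the 1 gene with every knockout above every control, where 8.14% of all tested genes did so.

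The authors' deposited table marks 4 of the 42 genes at an adjusted p under 0.05, Frem1, Npnt, Lama1 and Lamc1, all lower, where it marks 3.55% of its genes in either direction and 2.17% as lower. A limma-voom fit of the recovered reads called Frem1 and Npnt, where it called 1.49% of all genes, with 1.04% lower and 0.446% higher. Without knockout 3, limma called Frem1, Npnt and Itga8, where it called 1.38% of all genes, with 0.819% lower and 0.563% higher.

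**Figure D1:**
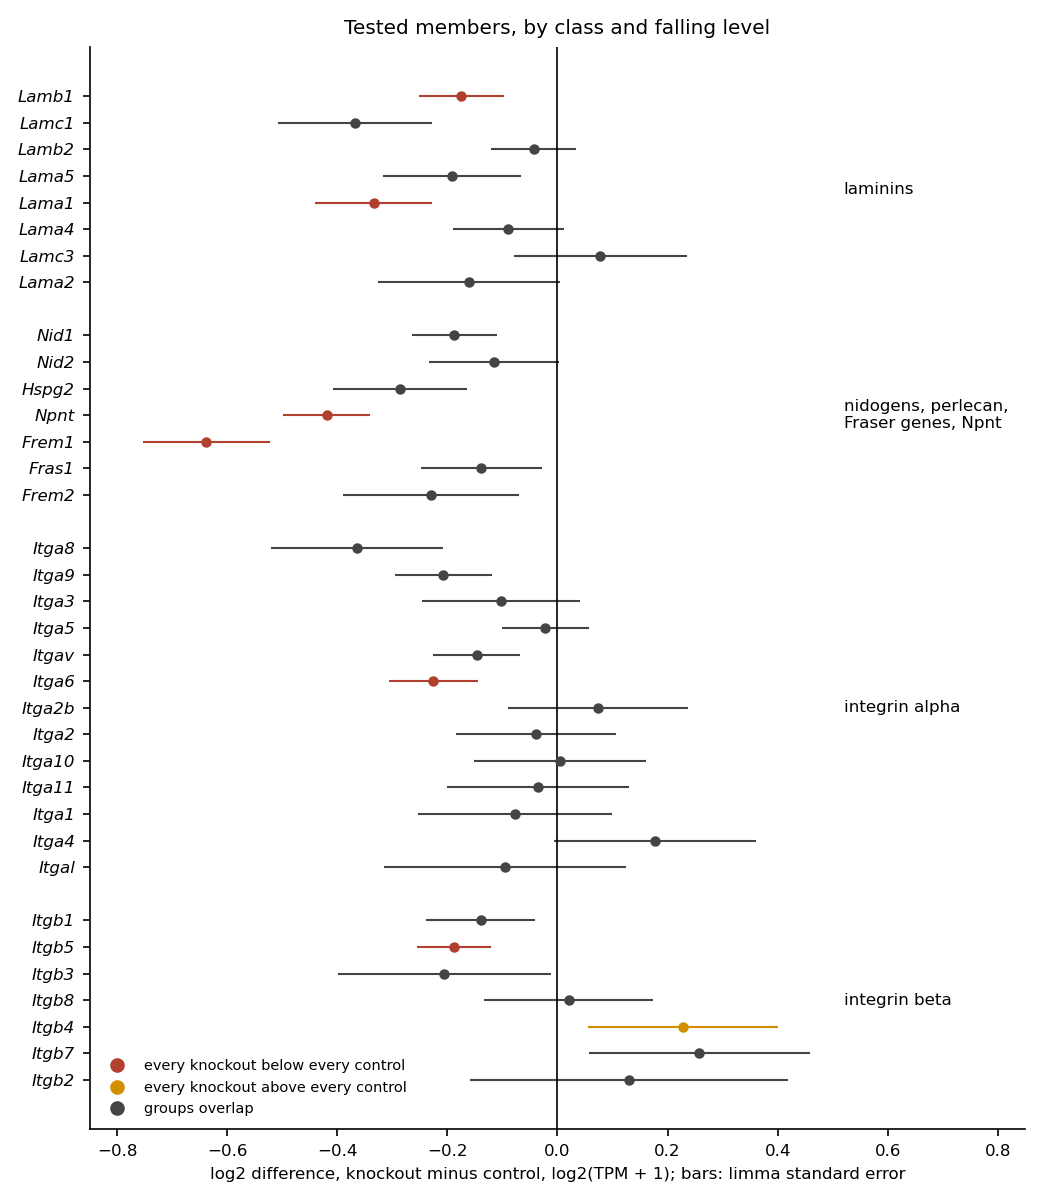
Log2 difference of knockout minus control on the log2(TPM + 1) scale (x axis) for the tested family genes named here (y axis, by class and falling level); points are limma estimates and bars their standard errors. Among genes whose groups do not overlap, Frem1 at -0.64 and Npnt at -0.42 lie farthest left, and no gene passed the test over all genes.

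Frem1 (ENSMUSG00000059049), the secreted protein of the Fraser complex, had 48.1, 49.4 and 65.0 TPM in knockouts 1 to 3, against 79.7, 85.5 and 87.1 TPM in controls 1 to 3. Every knockout lay below every control, and knockout 3 was the highest of its group. The log2 difference was -0.64 (SE 0.12; limma adjusted p = 0.0721, lower in 3 of 3 knockouts), and it was -0.77 without knockout 3 (limma adjusted p = 0.0086). Without any other single library it lay between -0.68 and -0.56, and its limma adjusted p between 0.15 and 0.28. The recovered reads behind these levels numbered 5792 to 10831 per library, and limma-voom on them gave an adjusted p of 0.00429. For Frem1 the authors' deposited table has a log2 fold change of -0.63 (adjusted p 3.11e-08).

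The other Fraser genes, Fras1 and Frem2, encode membrane-bound proteins of the complex and differed by less. Fras1 had 49.1, 42.6 and 50.8 TPM in knockouts, against 47.8, 49.4 and 60.3 TPM in controls. Frem2 had 37.4, 34.0 and 49.6 TPM in knockouts, against 40.2, 45.9 and 55.8 TPM in controls. In both genes the groups overlapped, and the log2 differences were -0.14 (SE 0.11) for Fras1 and -0.23 (SE 0.16) for Frem2, with limma adjusted p of 0.699 and 0.660. Whether Frem1 differed by more than Fras1 or Frem2 was not tested.

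Npnt (ENSMUSG00000040998) had 62.1, 59.0 and 69.1 TPM in knockouts 1 to 3, against 82.5, 82.9 and 89.6 TPM in controls 1 to 3. The groups did not overlap and each varied little, with 63.4 ± 5.20 TPM in knockouts and 85.0 ± 3.99 TPM in controls (mean ± SD, n = 3 each). The log2 difference was -0.42 (SE 0.08; limma adjusted p = 0.0811, lower in 3 of 3 knockouts), and limma-voom on the 2489 to 4032 reads per library gave an adjusted p of 0.0154. The difference kept between -0.48 and -0.37 when any 1 library was left out. In the authors' deposited table the log2 fold change of Npnt is -0.41 (adjusted p 6.86e-05).

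Itga8 (ENSMUSG00000026768), the alpha subunit of the nephronectin receptor, had 121, 134 and 194 TPM in knockouts 1 to 3, against 178, 193 and 197 TPM in controls 1 to 3. Knockouts 1 and 2 lay below every control, and knockout 3 lay among the controls. Its estimate, -0.36 on the log2 scale (SE 0.16; limma adjusted p = 0.436), became -0.57 without knockout 3 (limma adjusted p = 0.0230), so 1 library decides this call. Its partner Itgb1, the beta subunit shared by many integrins, had 398, 363 and 476 TPM in knockouts, against 435, 443 and 476 TPM in controls. Knockout 3 lay just under the highest control, and the log2 difference was -0.14 (SE 0.10; limma adjusted p = 0.663).

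**Figure D2:**
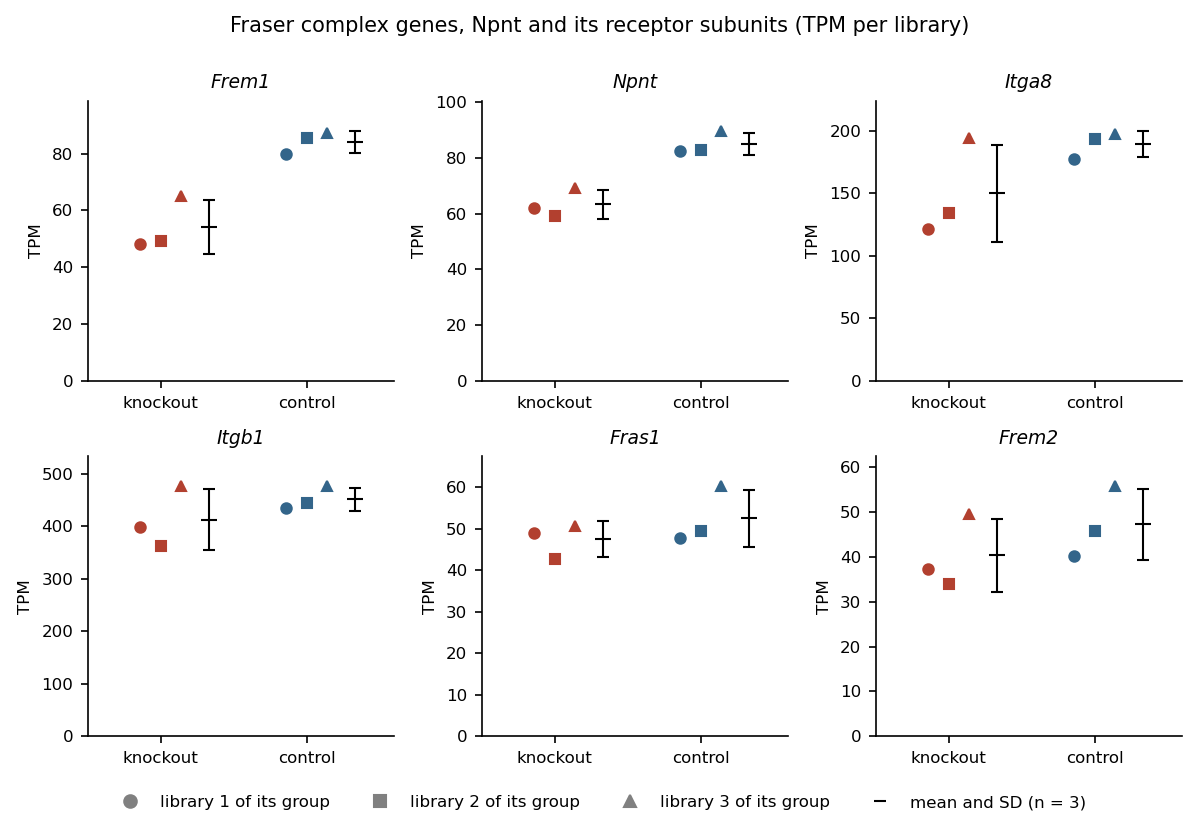
TPM in each of the 6 libraries (points; shape gives the library number, which the main test did not use as a pairing) for Fraser complex genes, Npnt and the subunits of its receptor, with group means and SD (n = 3). Frem1 and Npnt separate the groups, while the third knockout library, at 194 TPM for Itga8, lies among the controls.

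The 3 genes called without knockout 3 are shown by the bases before their annotated starts. They were searched on both strands for 5 short motifs. These were CTTTGAT, a TCF/LEF motif of the beta-catenin pathway, its variant form CTTTGAA, the TATA box written as TATAAA, the GC box written as GGGCGG, and the CCAAT box. Capitals mark matches. The sequences are the 250 bases upstream of the most upstream start in RefSeq's GRCm38.p6 table, another build than the GRCm39 named by the submitters, and all 3 genes lie on the minus strand. The Frem1 window is chr4:83052167-83052416, that of Npnt is chr3:132950292-132950541 and that of Itga8 is chr2:12301945-12302194.
Frem1: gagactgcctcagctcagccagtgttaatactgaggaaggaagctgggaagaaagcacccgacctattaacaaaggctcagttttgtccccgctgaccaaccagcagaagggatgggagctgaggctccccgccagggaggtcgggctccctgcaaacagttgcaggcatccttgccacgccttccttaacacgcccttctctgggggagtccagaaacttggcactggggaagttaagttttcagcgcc
Npnt: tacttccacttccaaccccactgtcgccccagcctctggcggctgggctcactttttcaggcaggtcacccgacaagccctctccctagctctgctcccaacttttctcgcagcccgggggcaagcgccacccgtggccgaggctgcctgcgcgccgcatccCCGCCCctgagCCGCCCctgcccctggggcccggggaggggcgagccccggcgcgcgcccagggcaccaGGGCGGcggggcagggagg
Itga8: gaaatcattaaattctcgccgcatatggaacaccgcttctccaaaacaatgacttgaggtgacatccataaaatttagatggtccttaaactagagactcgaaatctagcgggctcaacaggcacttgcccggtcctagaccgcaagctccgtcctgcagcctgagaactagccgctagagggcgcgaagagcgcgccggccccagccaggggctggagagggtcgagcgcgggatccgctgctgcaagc
The Npnt window holds 3 GC boxes and has a GC content of 74.0%, against 56.8% for Frem1 and 56.4% for Itga8, whose windows hold none of the 5 motifs. Of the 32851 windows of that table, 32.7% hold a GC box, 33.8% a CCAAT box, 12.4% a TATA box and 7.48% either TCF/LEF motif. Windows were listed for 27 of the 42 family genes, and 2 of their 32 windows hold a TCF/LEF motif. These matches are letters in a window and say nothing of binding.

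Among the laminins, alpha chain Lama1, the alpha chain of early embryonic and tubule basement membranes, was lower in every knockout. Lama1 (ENSMUSG00000032796) had 45.8, 43.2 and 52.1 TPM in knockouts 1 to 3, against 53.2, 58.8 and 67.0 TPM in controls 1 to 3. The groups did not overlap, with knockout 3 next to control 1. The log2 difference was -0.33 (SE 0.11; limma adjusted p = 0.273). Its adjusted p in the authors' deposited table is 0.0132.

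Lama5, the main alpha chain of many mature epithelia, had 70.8, 57.5 and 60.1 TPM in knockouts, against 61.6, 70.2 and 84.7 TPM in controls, and the groups overlapped. Lama4, an alpha chain of blood vessels, had 28.1, 28.7 and 31.9 TPM in knockouts, against 29.4, 30.0 and 35.4 TPM in controls. In neither gene were the groups apart, with log2 differences of -0.19 (SE 0.13) for Lama5 and -0.09 (SE 0.10) for Lama4. Lama2, the alpha chain of muscle and nerve, averaged 3.09 TPM in knockouts and 3.56 TPM in controls. The epidermal chain Lama3 stayed under 1 TPM in every library.

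Lamb1, the beta chain of most embryonic laminins and the highest of the 11 chains, had 168, 146 and 172 TPM in knockouts, against 177, 178 and 193 TPM in controls. Every knockout lay below every control, its difference on the log2 scale being -0.17 (SE 0.08; limma adjusted p = 0.453). Lamb2, the beta chain of glomerular and synaptic laminins, had 90.7, 91.9 and 85.8 TPM in knockouts, against 83.9, 99.3 and 94.0 TPM in controls. Its groups overlapped, and its log2 difference of -0.04 (SE 0.08) was the second smallest in size among the 22 genes of at least 10 TPM.

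The gamma chain Lamc1, which nidogens bind, had 143, 104 and 130.2 TPM in knockouts 1 to 3, against 141, 155 and 191 TPM in controls 1 to 3. Knockout 1 exceeded control 1, so the groups overlapped, and control 3 was the highest library. The log2 difference was -0.37 (SE 0.14; limma adjusted p = 0.376). Its adjusted p in the authors' deposited table is 0.0403. Lamc3 averaged 8.40 ± 0.924 TPM in knockouts and 7.94 ± 1.33 TPM in controls (SD, n = 3 each).

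Shares of the alpha and beta chain totals were then computed per library, without a test. Lama5 gave 43.8 ± 3.48% of alpha chain TPM in knockouts and 42.9 ± 1.41% in controls, and Lama1 gave 32.8 ± 2.25% in knockouts and 35.6 ± 0.553% in controls (SD, n = 3 each). Lamb1 gave 64.1 ± 2.70% of beta chain TPM in knockouts and 66.2 ± 1.89% in controls. Among gamma chains, Lamc3 relative to Lamc1 was 0.0656, 0.0724 and 0.0638 in knockouts, against 0.0478, 0.0498 and 0.0490 in controls. These ratios, computed after the values were seen, did not overlap between the groups, and no share was computed over other gene ratios. The levels of Lamc3 itself overlapped (log2 difference 0.08, SE 0.16).

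**Figure D3:**
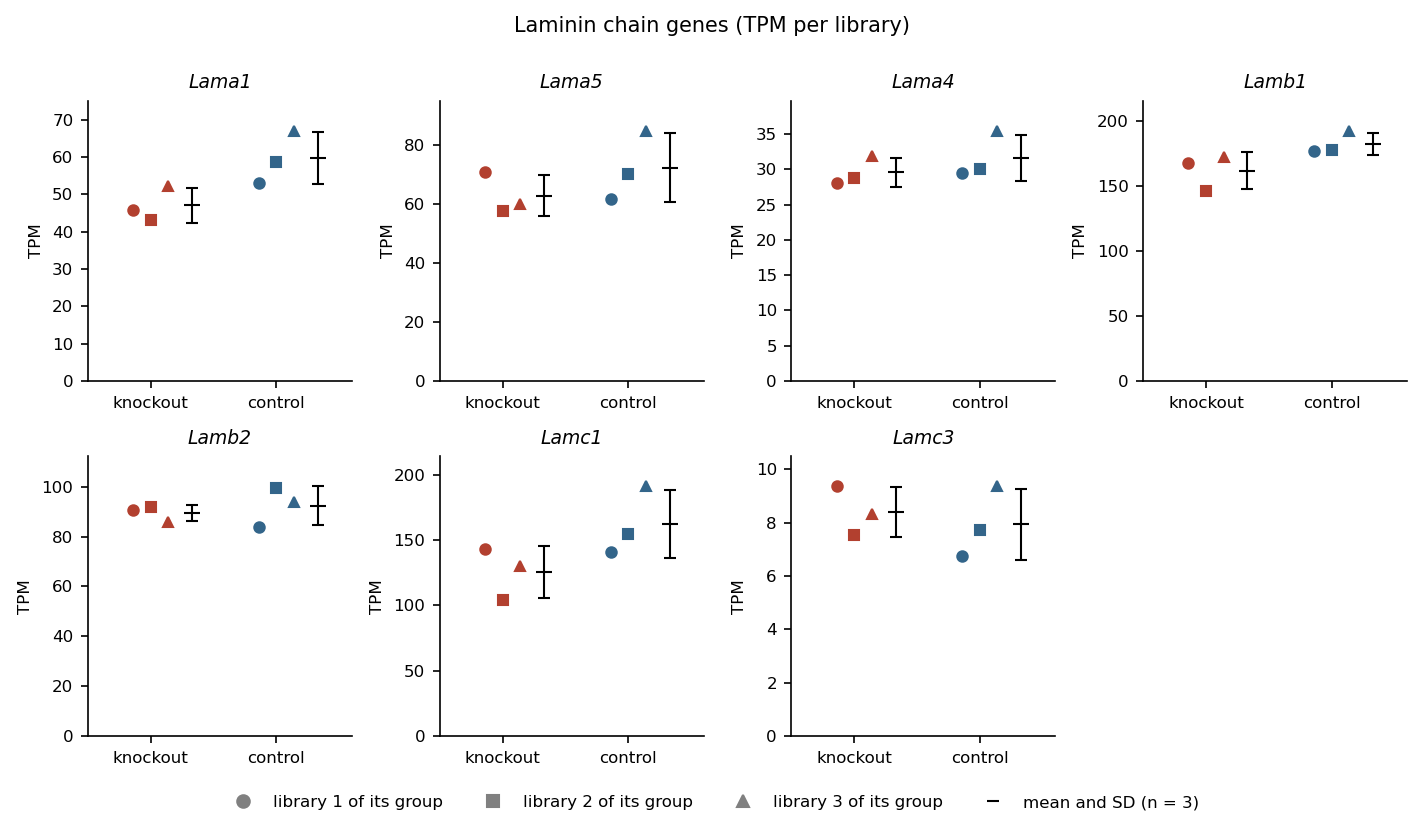
TPM in each of the 6 libraries (points; shape gives the library number) for 7 laminin chains, with group means and SD (n = 3). Lama1 and Lamb1 separate the groups, and control 3 is the highest library for Lama1, Lama5, Lama4, Lamb1 and Lamc1.

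The linkers of the sheet had negative differences that did not pass the test. Nid1, a nidogen that joins laminin gamma 1 to collagen IV, had 145, 146 and 157 TPM in knockouts, against 154, 174 and 183 TPM in controls. Its log2 difference was -0.19 (SE 0.08; limma adjusted p = 0.421), and knockout 3 lay above control 1. Nid2, the other nidogen, had 128, 116 and 161 TPM in knockouts, against 133, 148 and 155 TPM in controls, with knockout 3 above all controls. Hspg2, which encodes the heparan sulfate proteoglycan perlecan, had 109, 89.3 and 95.2 TPM in knockouts, against 107, 110.1 and 143 TPM in controls. Its groups overlapped, its difference on the log2 scale being -0.29 (SE 0.12; limma adjusted p = 0.430).

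Of the integrin alpha subunits, Itga8 was the highest and Itga9 followed. Itga9, which pairs with beta 1 and binds tenascin C and other ligands, had 66.0, 63.8 and 71.5 TPM in knockouts, against 70.8, 76.3 and 86.3 TPM in controls. Knockout 3 lay just above control 1, and the log2 difference was -0.21 (SE 0.09; limma adjusted p = 0.433). The laminin receptor subunit Itga3 had 75.4, 65.7 and 66.3 TPM in knockouts, against 59.0, 76.1 and 90.7 TPM in controls; the controls spanned all the knockout values. Itga6, the other main laminin receptor subunit, had 27.2, 25.9 and 28.5 TPM in knockouts, against 32.8, 30.6 and 32.5 TPM in controls. Its groups did not overlap and were tight, at -0.23 on the log2 scale (SE 0.08; limma adjusted p = 0.336).

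Itga5, the subunit of the main fibronectin receptor, was nearly level, at 66.3 ± 3.80 TPM in knockouts and 67.4 ± 4.79 TPM in controls (SD, n = 3 each). Itgav, the alpha subunit that joins several beta subunits, had 40.5, 41.1 and 46.4 TPM in knockouts, against 47.5, 46.2 and 48.0 TPM in controls. Knockout 3 lay just inside the control values, and the log2 difference was -0.15 (SE 0.08; limma adjusted p = 0.556). The collagen receptor subunits Itga1, Itga2, Itga10 and Itga11 were low, with group means from 3.18 to 6.26 TPM and log2 differences from -0.08 to 0.0043. Itga4, a fibronectin and VCAM-1 receptor subunit, averaged 3.30 ± 0.629 TPM in knockouts and 2.77 ± 0.0517 TPM in controls (SD, n = 3 each), and its groups overlapped.

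Subunits of blood cells were low throughout. Itga2b, the platelet subunit, averaged 6.71 ± 0.767 TPM in knockouts and 6.35 ± 1.01 TPM in controls, and its partner Itgb3 had 5.25, 4.48 and 6.21 TPM in knockouts, against 4.77, 6.98 and 7.22 TPM in controls. The summed level of 7 platelet markers, family genes left out, was 74.3 to 97.9 TPM in knockouts, against 57.5 to 65.9 TPM in controls; its part in these values was not tested. The leukocyte subunits Itgal, Itgam, Itgae and Itgb2 did not exceed 2.16 TPM in any library. The summed level of 12 leukocyte markers was 175 to 219 TPM in knockouts and 169 to 278 TPM in controls, and Ptprc was under 1 TPM in every library.

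Among the beta subunits, Itgb5, which pairs with alpha v and binds vitronectin, had 120.1, 114 and 127 TPM in knockouts, against 130.0, 142 and 139 TPM in controls. Every knockout lay below every control (log2 difference -0.19, SE 0.07; limma adjusted p = 0.335). Itgb4, which pairs with alpha 6 in hemidesmosomes, had 3.67, 3.01 and 4.08 TPM in knockouts, against 2.87, 3.00 and 2.82 TPM in controls. It lay higher in every knockout, though knockout 2 barely exceeded control 2, and the log2 difference was 0.23 (SE 0.17; limma adjusted p = 0.688). Itgb8 was level at 5.10 TPM in knockouts and 5.02 TPM in controls, and the lymphocyte subunit Itgb7 averaged 2.03 TPM in knockouts and 1.53 TPM in controls.

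**Figure D4:**
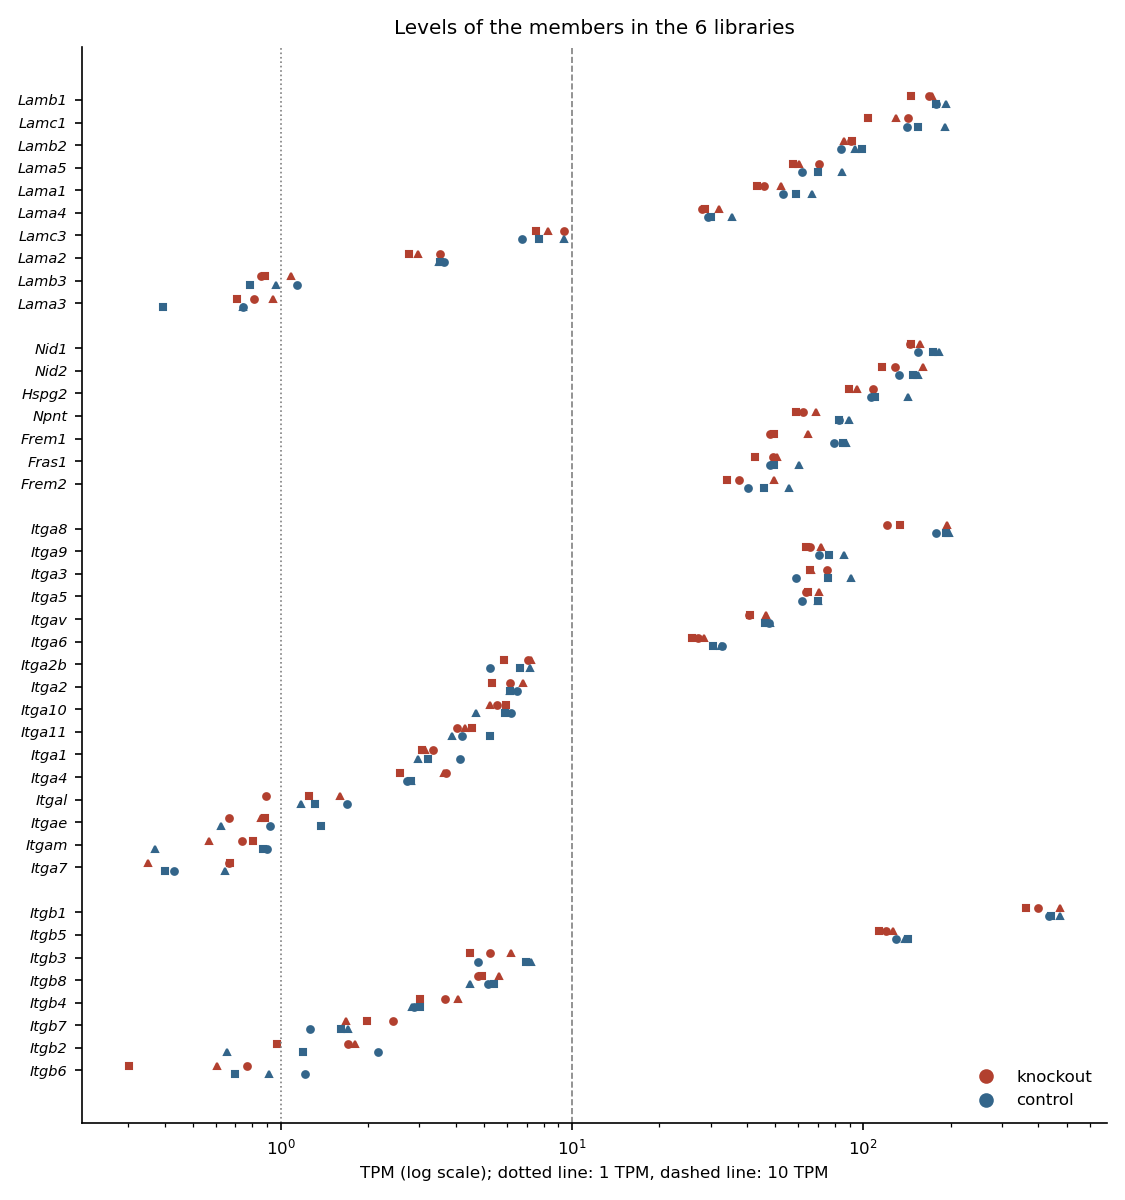
TPM on a log axis (x) of the family genes named here (y axis, by class and falling level) in the 3 knockout and 3 control libraries (shape gives the library number); lines mark 1 and 10 TPM. Itgb1 was the highest gene, with a mean of 412 TPM in knockouts and 452 TPM in controls, and the genes shown that average 10 TPM or more had lower means in the knockouts.

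Receptors were then set beside their ligands in each library. The 17 pairs also include Itga6 with Itgb4, subunits of 1 receptor, and Nid1 with Lamc1, both of the matrix. The level of Npnt per unit of Itga8 was 0.512, 0.440 and 0.356 in knockouts 1 to 3, against 0.465, 0.429 and 0.454 in controls 1 to 3. The knockout ratios lay on both sides of the control ratios (exact two-sided permutation p = 0.8; 0.907 adjusted over the pairs). Relative to Itgb1, Npnt stood at 0.156, 0.163 and 0.145 in knockouts, against 0.190, 0.187 and 0.188 in controls. Those control ratios were nearly equal and every knockout ratio was below them (exact permutation p = 0.1, the smallest that 3 against 3 can give; 0.34 adjusted over the pairs).

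Frem1 relative to Itga8 was 0.397, 0.368 and 0.334 in knockouts, against 0.449, 0.443 and 0.441 in controls, without overlap. Fras1 and Frem2 relative to Itga8 overlapped between the groups. Lama5 relative to Itga3 was 0.907 ± 0.0316 in knockouts and 0.966 ± 0.0662 in controls, and Lama1 relative to Itga6 was 1.73 ± 0.0891 in knockouts and 1.87 ± 0.224 in controls (SD, n = 3 each). Both laminin pairs overlapped between groups. Itgb4 relative to Itga6 was 0.135, 0.116 and 0.143 in knockouts, against 0.0877, 0.0980 and 0.0870 in controls.

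Of the 17 pairs, 5 did not overlap between groups, among them the subunit pair of Itga6 and Itgb4. Of single genes tested, 16.6% did not overlap in either direction, and no share was computed over other gene pairs. Each of the 5 pairs had an exact permutation p of 0.1, and 0.34 after adjustment over the pairs. Those of the 5 not named above were Itga9 with tenascin C (Tnc) and Itgav with osteopontin (Spp1). Tnc relative to Itga9 was 0.230 ± 0.0102 in knockouts and 0.122 ± 0.0306 in controls, and Spp1 relative to Itgav was 0.350 ± 0.0364 in knockouts and 0.955 ± 0.108 in controls (SD, n = 3 each). The log2 difference was 0.68 for Tnc and -1.53 for Spp1, with -0.21 for Itga9 and -0.15 for Itgav.

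Other genes of the same matrix and its receptors were counted in lists. Of 25 tested basement membrane genes outside the family, limma over all genes called 1 lower and 0 higher, which left 24 uncalled, where it called 0.444% of all genes. At an unadjusted p under 0.05 there were 3 lower and 2 higher, where 11.3% of all genes were in either direction. Limma-voom called 2, where it called 1.49% of all genes, and the authors' deposited table marks 2 lower and 0 higher, where it marks 3.55% of its genes. The lower one was Smoc2, a secreted calcium-binding matrix protein, with 70.5, 63.7 and 55.4 TPM in knockouts, against 104, 113 and 118 TPM in controls (log2 difference -0.82, SE 0.10; limma adjusted p = 0.0156). The median log2 difference of that list was -0.08, and Col4a1, a chain of collagen IV, differed by -0.07 on the log2 scale (SE 0.06). The other tested collagen IV chains ran from -0.25 (SE 0.11) for Col4a6 to 0.30 (SE 0.21) for Col4a4. Col15a1, the chain of collagen XV, had 43.4, 46.5 and 43.4 TPM in knockouts, against 61.1, 56.1 and 60.8 TPM in controls. Its groups did not overlap, but it did not pass (log2 difference -0.41, SE 0.07; limma adjusted p = 0.0658), and its adjusted p in the authors' deposited table is 0.000264. Col15a1 and the collagen IV chains were named after their values were seen.

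Of 20 tested integrin ligands outside the basement membrane, limma called 2 lower and 0 higher, which left 18 uncalled, against the same 0.444% of all genes. At an unadjusted p under 0.05 there were 6 lower and 2 higher, against 11.3% of all genes. Limma-voom called 4, of which 3 were lower, against 1.49% of all genes. The authors' deposited table marks 4 lower and 2 higher, against 3.55% of its genes, and Tnc is one it marks higher (adjusted p 3.42e-05; limma adjusted p = 0.124). Spp1, an RGD ligand of alpha v, alpha 8 and other integrins, fell to 15.8, 13.2 and 15.6 TPM in knockouts, against 41.0, 43.0 and 51.5 TPM in controls (limma adjusted p = 0.00341). Tgfbi, a matrix protein that binds alpha v and other integrins, averaged 632 ± 41.3 TPM in knockouts and 953 ± 46.8 TPM in controls (SD, n = 3 each; limma adjusted p = 0.0156). Egfl6, another ligand of integrin alpha 8 beta 1, had 25.4, 24.7 and 28.9 TPM in knockouts, against 33.8, 36.7 and 35.9 TPM in controls. Its groups did not overlap, but it did not pass (log2 difference -0.42, SE 0.09; limma adjusted p = 0.119; named after its values were seen). The median log2 difference of the list was -0.01.

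Of 20 tested integrin linkers and adaptors, limma called 0, while 4 had an unadjusted p under 0.05, with 3 lower and 1 higher, against 11.3% of all genes. Limma-voom called 1, against 1.49% of all genes, and the authors' deposited table marks 3 lower and 1 higher, against 3.55% of its genes. Its 3 lower genes are Fermt1, Tns1 and Tln2, with limma log2 differences of -0.73, -0.34 and -0.24. Fermt1 averaged only 0.930 TPM in knockouts and 2.17 TPM in controls. The higher one is Parvb, with 0.32. Talin 1 (Tln1), which activates integrins, and kindlin 2 (Fermt2), another integrin activator, were named for their high level. Their log2 differences were -0.05 (SE 0.07) and -0.04 (SE 0.07). The median of that list was -0.06.

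The libraries of a group differed for the family as a whole. For the 22 genes averaging 10 TPM or more, each library was set against the mean of the controls, and each control against the mean of the other controls. The median level was 88.1%, 80.1% and 92.5% of that mean in knockouts 1 to 3, against 87.6%, 97.2% and 111% in controls 1 to 3. A knockout was set against the mean of 3 controls and a control against that of 2, so these percents do not place control 1 among the knockouts. Control 3 was above the mean of the other controls for all 22 genes. Knockout 3 was the highest of its group for 23 of the 36 tested genes (63.9%) and control 3 of its group for 22 (61.1%), where the same held for 43.9% and 42.7% of all tested genes.

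Without control 3, 20 of the 22 genes had a negative difference, with Itga3 and Itga5 positive, and their median was -0.14 rather than -0.19; 2 of the 36 tested genes had an unadjusted limma p under 0.05. Without knockout 3 the median of the 22 was -0.25. Marker sums that did not overlap between groups were those of the duct and tubules, of endothelium, of the gonadal soma and of platelets. By mean TPM, duct and tubule markers were lower in 11 of 14 genes and endothelial ones in 10 of 10. By the log2 difference, 10 of 14 and 10 of 10 were negative. Of all tested genes, 51.8% had a negative log2 difference. The endothelial sum was 549 to 587 TPM in knockouts against 619 to 649 TPM in controls. Markers of the gonadal soma were higher by mean TPM in 11 of 12 and those of platelets in 7 of 7. Where the sums overlapped, markers of erythroid cells were higher in 10 of 10 by mean TPM and in 9 of 10 by the log2 difference. By mean TPM, those of germ cells were higher in 7 of 8, those of neural crest and glia in 5 of 6, and those of leukocytes lower in 9 of 12. Those of mesenchyme and mural cells were higher in 6 and lower in 4, those of podocytes higher in 5 and lower in 2. Those of mesothelium were higher in 3 and lower in 4. The part of these markers in the lower levels of the family was not tested.

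**Figure D5:**
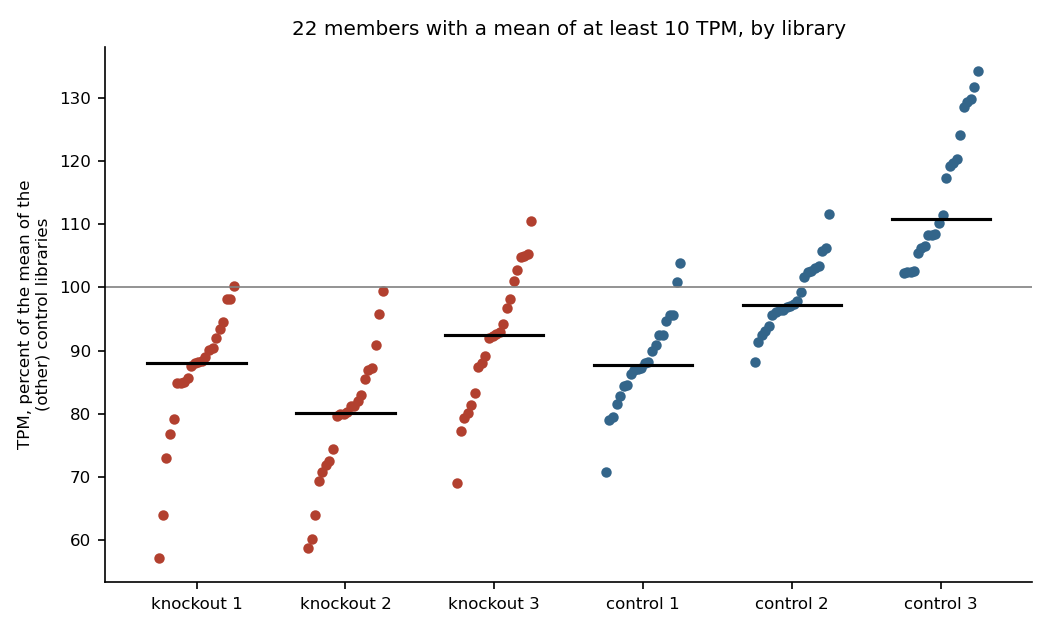
Level of each of the 22 genes averaging 10 TPM or more (points) in each library (x axis), as a percent of the mean of the controls, or of the other controls for a control library (y axis); bars mark the medians, from 80.1% in knockout 2 to 111% in control 3. The median of control 1, 87.6%, is relative to the mean of 2 controls and those of the knockouts to the mean of 3, so they are not on the same scale.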

How the data were processed

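Per the labels' protocols, RNA of each mesonephros went through poly(A) enrichment before library construction; per the submitters' processing notes, build GRCm39 and DESeq2 were used. No aligner, counter, strand setting or annotation is named in the labels, so they are not given here. The authors deposited 1 TPM column per mouse, plus their log2 fold change, p-value and adjusted p-value of knockout over control, per the file headers. Libraries were grouped by title; no source says that litters differ.

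The main test was limma 3.58.1 (R 4.3.3), fitted to log2(TPM + 1) with its trend option and genotype as the only term; such differences understate changes of low genes. The threshold was an adjusted p of 0.05. Comparing TPM of 1 gene between libraries gave whole reads for all 20033 genes within 0.005 reads, used for depth and for limma-voom (genes of at least 10 reads in 3 or more libraries); a multiple shared by all 6 libraries cannot be seen, so reads are lower bounds. The steps were run on simulated data whose changes were larger than most of the family differences, so that run says nothing of how often differences of this size are found. Alternatives changed the scaling, filter, pseudocount, trend or block, or left out 1 library.

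The members and lists were chosen with earlier results of these data known. Values per library are given by rule for Itga8, Npnt, Itgb1 and the Fraser genes, for members past the test, for members without overlap and a log2 difference of at least 0.3, and for the 3 highest of the laminins and of each integrin class; other members shown per library were chosen after their values were seen. From each related list, genes past the test were named, or else the 2 of highest level; other genes of these lists were chosen after their values were seen. A planned list of genes most correlated with Itga8 and Npnt is not given, since a correlation pooled over both groups mixes the difference between groups with the spread within them. A result withheld from this text is not reported here, though counts over the family include every member.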

Additional observations from a re-analysis of the deposited data

How the results depend on the processing

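The 14 family genes named by rule kept the sign of their log2 difference under every alternative, except Lamb2 without control 2 (0.0098; -0.1101 to 0.0098 over the omissions of 1 library) and Itga3 without control 3 (0.0407; -0.2645 to 0.0407); the cause was not tested. Of all 36 tested family genes, 12 changed sign when some 1 library was left out, among them Itga5, Itgb8, Itga10, Itga2b and Lamc3. The count of family genes past the threshold was 0, and it stayed 0 except without knockout 3 (3) and with limma-voom on the recovered reads (2), an alternative chosen after seeing the data; it ranged from 0 to 3 when 1 library was left out. The number of tested family genes with a negative difference, 28, ranged from 25 to 29 in those omissions. The count over all genes, 78, was 28 without the mean-variance trend, 284 with limma-voom, and between 13 and 243 without 1 library. Genes of the 3 related lists past the threshold numbered 3, against 1 without the trend, 7 with limma-voom, and between 1 and 5 without 1 library. With the mouse number as a replicate block, 0 family genes, 17 of all genes and 1 gene of the lists passed. Same-numbered libraries had correlations of deviations of -0.064, 0.05 and -0.051, against -0.058 to 0.113 for libraries of different number. With 3 libraries per group, such small values cannot tell whether same-numbered libraries shared an effect, a litter or a batch. The log2 ratio of Npnt to Itga8, -0.06, was between -0.1829 and 0.0805 without 1 library. The 22 genes of at least 10 TPM rest on 578 to 17271 recovered reads per library.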
